A study of Mus musculus with 8 samples.

Results

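The genes described here are interferon-stimulated genes and the receptors and transcription factors that regulate them. A list of 39 mouse genes was matched by symbol to the 55487 genes of the deposited table, and all 39 were found and passed the filter on low counts. RNA had been sequenced from mouse cells labelled pro-B cells, with 4 libraries labelled CD25_KO and 4 labelled WT. Il2ra encodes CD25, the chain that raises the affinity of the interleukin-2 receptor for its ligand. The only difference between the groups that the labels give is this genotype. Strain, age, sex, treatment, the construction of the knockout allele and the number of animals are not stated there. The labels do not state that the libraries of a group stem from different mice. P-values therefore cover only the spread among these libraries, and that spread may be technical. The study asked, per its title, whether this receptor chain is needed for B cell development.

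Interferons are secreted proteins, and cells release those of type I on sensing foreign or misplaced nucleic acid. Type I interferons bind a receptor made of Ifnar1 and Ifnar2, and type II interferon binds one made of Ifngr1 and Ifngr2. The type I receptor signals through Jak1 and Tyk2 to a complex that holds Stat2 and Irf9 and binds a DNA element called the interferon-stimulated response element (ISRE). The type II receptor acts mainly through another element, the gamma-activated site (GAS). The genes switched on include RNA sensors, antiviral effectors and their own transcription factors. In the bone marrow, type I interferon is known to restrain the growth of early B lineage cells in response to interleukin-7.

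Promoter windows of 5 of the genes are shown because their values are described in detail below. Isg15, Ifit1, Ifit3 and Rsad2 were at least 2 times higher in 1 labelled knockout library than in the other 3. Rtp4 was so as well (22.9 CPM against 7.41 to 10.6 CPM) but had no promoter entry. Stat2 separated the groups with the labelled knockout libraries higher, as did 2.62% of all genes tested. Each window is 100 bases of the RefSeq promoter on GRCm38.p6, written 5′ to 3′ on the strand of the gene. Capitals mark matches to the ISRE letters, which were searched as GAAA, any 2 bases and GAAA again on either strand. Overlapping matches form 1 run of capitals. All 5 genes shown have a match, and genes described below without one, Ifi44 and Trim25 among them, are not shown.

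Isg15 (chr4:156200836-156200935, minus strand): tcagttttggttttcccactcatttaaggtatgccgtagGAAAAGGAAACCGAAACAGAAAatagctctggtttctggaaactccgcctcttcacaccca
Ifit1 (chr19:34640749-34640848, plus strand): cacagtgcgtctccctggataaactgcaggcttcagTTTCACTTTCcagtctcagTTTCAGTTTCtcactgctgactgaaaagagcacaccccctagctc
Ifit3 (chr19:34583345-34583444, plus strand): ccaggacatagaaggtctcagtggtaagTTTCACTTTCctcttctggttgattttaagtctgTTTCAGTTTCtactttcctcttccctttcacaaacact
Rsad2 (chr12:26456518-26456617, minus strand): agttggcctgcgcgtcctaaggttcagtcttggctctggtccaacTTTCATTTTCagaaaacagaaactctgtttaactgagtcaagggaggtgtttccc
Stat2 (chr10:128270248-128270347, plus strand): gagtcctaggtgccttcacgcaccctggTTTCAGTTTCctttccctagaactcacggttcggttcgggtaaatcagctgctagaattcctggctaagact

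Counted from the annotated start, the first match began 78 bases upstream in Isg15, 104 in Ifit1, 156 in Ifit3, 120 in Rsad2 and 222 in Stat2. The RefSeq table held a promoter of 300 bases for 30 of the 39 genes. The ISRE letters were found in 15 of these 30 (50%), against 3.44% of all 32851 promoters of the same length and 3.99% of the 27025 genes they belong to. The GAS letters TTCNNNGAA, which read the same on both strands in their fixed bases, were found in 11 of the 30 (36.7%), against 8.30% of all promoters and 9.55% of genes. A match is a description of the letters and not evidence of binding.

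The libraries held 43974037 to 57988772 counts. Values are counts relative to library size, scaled with TMM factors (CPM), and differences are given as log2 fold changes ± SE of labelled knockout over wild type. Il2ra, the targeted gene, was not lower under the knockout label beyond the spread of the libraries. It had 200.2, 216.4, 215.6 and 140.4 CPM in wild type libraries 1 to 4 and 144.7, 168.3, 243.7 and 168.3 CPM in labelled knockout libraries 1 to 4. The difference was -0.09 ± 0.19 with a 95% interval of -0.51 to 0.32 (edgeR quasi-likelihood, Benjamini-Hochberg adjusted p = 0.849). Whether a deleted part of Il2ra is covered by these counts cannot be told from a value per gene, so the group is called labelled knockout throughout. The 14 pro-B cell markers, Vpreb1 and Rag1 among them, were detected in every library and summed to between 9187 and 11261 CPM. Labelled knockout 4 stood apart from the other libraries of its group in the interferon-stimulated genes, and its values are given beside the results they touch.

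No gene of the list passed the test, and neither did any other gene. Of the 18884 genes tested, 0 (0.0%) passed an adjusted p of 0.05 with edgeR's quasi-likelihood test, and DESeq2 and limma-voom also called 0. Among the 39 interferon genes, 4 had an unadjusted p under 0.05, against 12.6% of all genes tested: Stat2 and Trim25 with higher values (5.53% of all genes had such a p and a higher value) and Ifi44 and Eif2ak2 with lower values (7.11%). DESeq2 gave 4 such genes, 2 in each direction, against 2620 of the 45851 genes in its fit, which had no such count filter. Limma-voom gave 3, against 3758 of its 18884 genes. All 3 had higher values, so that Ifi44 and Eif2ak2 had no such p there. As these backgrounds differ, the counts of the 3 methods cannot be compared directly. The log2 fold change was below 0 in 29 of the 39, where 49.6% of all genes had a value below 0. The median was -0.18 for the list and 0.003 for all genes, and the list ran from -1.07 to 0.51. Adjusted p-values of the 39 ran from 0.391 to 0.988 (edgeR quasi-likelihood), and the 95% interval of the fold change lay within 2-fold in either direction for 27 of the 39.

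The median depended on single libraries. It was -0.38 without labelled knockout 4, -0.06 without wild type 2, -0.06 without labelled knockout 2 and -0.09 without labelled knockout 1. It was -0.09 under limma-voom and -0.27 under upper quartile scaling, where the median of all genes was -0.09. The number of the 39 with an unadjusted p under 0.05 was 14 without labelled knockout 4 (background 12.1%), 7 without wild type 4 (background 21.9%) and 2 without labelled knockout 3 (background 6.07%). Without wild type 4, 363 genes (1.86% of those tested) passed an adjusted p of 0.05 (edgeR quasi-likelihood), but none of the 39 did so in any of these fits. For single genes a range in brackets gives the lowest and highest log2 fold change over the 17 alternative fits.

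**Figure D1:**
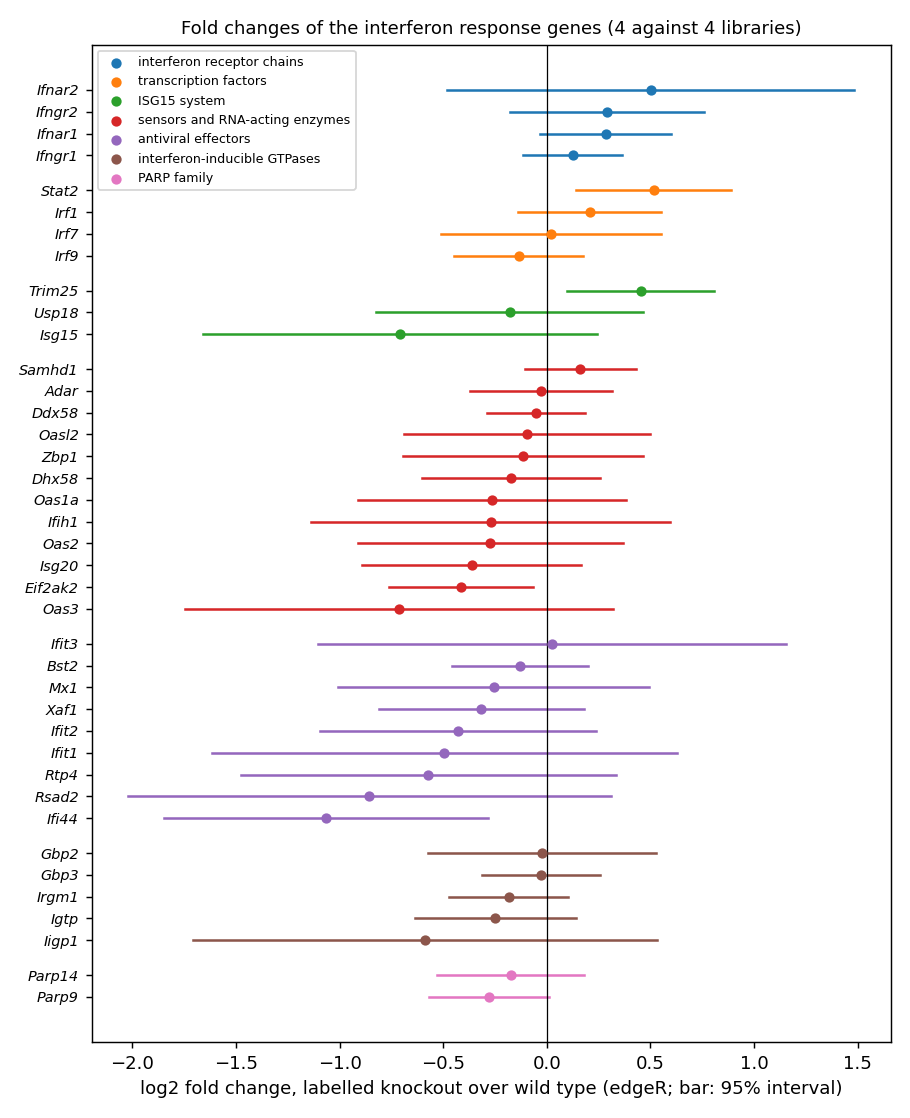
Log2 fold change of each of the 39 genes, labelled knockout over wild type (x axis), with bars for the 95% interval of edgeR's fit and colours for the role of the gene. All 4 receptor chains lie to the right of 0, while 8 of the 9 antiviral effectors lie to the left, and all but 4 bars cross 0.

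The receptor chains had higher mean values in the labelled knockout group in 4 of 4 cases, with a median log2 fold change of 0.29 and no adjusted p under 0.415 (edgeR quasi-likelihood). Ifnar1, the low-affinity chain of the type I receptor (ENSMUSG00000022967.13, chromosome 16, 91485238 to 91507441, plus strand, mm10), was at 131, 86.5, 125 and 123 CPM in wild type libraries 1 to 4 and at 143, 129, 162 and 132 CPM in labelled knockout libraries 1 to 4. Wild type 2 was the lowest library and the groups overlapped through wild type 1, which lay above labelled knockout 2. The means were 116 ± 20.2 CPM for wild type and 142 ± 14.9 CPM for labelled knockout (SD, n = 4), a difference of 0.28 ± 0.14 (range 0.20 to 0.37, edgeR adjusted p = 0.415).

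Ifngr1, the ligand-binding chain of the type II receptor, had the highest level per length of all 39 genes, at 47.7 CPM per kilobase of exon. It was measured at 140.0, 106, 133 and 141 CPM in the wild type libraries and at 149, 141, 139 and 138 CPM in the labelled knockout libraries. The labelled knockout libraries lay close together, labelled knockout 3 and 4 lay below wild type 4, and the difference was 0.12 ± 0.11 (range 0.04 to 0.17, edgeR adjusted p = 0.616), with 0.07 when wild type 2 was left out.

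Its partner chain Ifngr2 had 28.6, 27.8, 31.2 and 48.2 CPM in wild type and 53.1, 33.1, 39.2 and 40.7 CPM in the labelled knockout libraries. Wild type 4 was far above the other wild type libraries and above 3 of the 4 labelled knockout libraries, and the difference was 0.29 ± 0.21 (edgeR adjusted p = 0.552). It was 0.51 without wild type 4 and 0.14 without labelled knockout 1. Ifnar2, the high-affinity chain of the type I receptor, was looked at after its values had been seen. It spanned 18.4, 10.3, 21.7 and 50.1 CPM in wild type and 54.4, 24.1, 29.1 and 34.8 CPM in labelled knockout libraries, a difference of 0.50 ± 0.44 (range 0.22 to 1.10) that was 1.09 without wild type 4 (edgeR adjusted p = 0.084 in that fit). In all 4 chains the lowest of the 8 libraries was wild type 2 and none had its highest labelled knockout value in library 4.

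Among the transcription factors, Stat2 had the largest difference and was the only 1 of the 39 genes in which the groups did not overlap. Stat2 binds Irf9 and carries the activation domain of the type I complex (ENSMUSG00000040033.16, chromosome 10, 128270559 to 128292849, plus strand, mm10). The wild type libraries had 86.9, 53.1, 81.7 and 87.5 CPM and the labelled knockout libraries 109, 99.3, 131 and 103 CPM, so that every labelled knockout library lay above every wild type library. Of all genes tested, 2.62% separated this way with the labelled knockout libraries higher and 4.17% with them lower. A count of 1 in 39 genes is near the first of these shares. The means were 77.3 ± 16.3 CPM for wild type and 110.4 ± 14.1 CPM for labelled knockout (SD, n = 4), and edgeR gave 0.51 ± 0.17 with a 95% interval of 0.14 to 0.89 and an adjusted p of 0.391. Over the 17 alternative fits the difference stayed between 0.41 and 0.61.

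Irf1, a factor induced by type II interferon that also acts on basal expression, was at 167, 113, 176 and 174 CPM in wild type and 184, 156, 210.1 and 176 CPM in the labelled knockout libraries. Wild type 2 was again low, the other 7 libraries overlapped, and the difference was 0.21 ± 0.15 (edgeR adjusted p = 0.569). It was 0.11 without wild type 2, 0.13 without labelled knockout 3 and 0.31 without labelled knockout 2. Its level per length, 42.6 CPM per kilobase, was the next after that of Ifngr1, and 20% of its exon bases are shared with another annotated gene. Irf9 differed by -0.14 ± 0.14 (range -0.24 to -0.02) and Irf7, the amplifier of type I interferon production, by 0.02 ± 0.24 (range -0.24 to 0.19). The sign of the Irf7 difference turned under upper quartile scaling, and the difference was -0.22 without labelled knockout 4. Irf7 had its highest value of all 8 libraries in labelled knockout 4, at 23.7 CPM against 12.7 to 15.2 CPM in the other labelled knockout libraries.

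The ISG15 system joins a ubiquitin-like protein to targets. Isg15, the modifier itself (ENSMUSG00000035692.7, chromosome 4, 156199455 to 156200796, minus strand, mm10), was at 3.38, 6.12, 7.83 and 8.89 CPM in wild type libraries 1 to 4 and at 2.0, 2.95, 3.45 and 7.64 CPM in labelled knockout libraries 1 to 4. Labelled knockout 4 lay among the wild type libraries, while labelled knockout 1 and 2 were below all of them and labelled knockout 3 was close to wild type 1. The means were 6.56 ± 2.40 CPM for wild type and 4.01 ± 2.49 CPM for labelled knockout (SD, n = 4), with a difference of -0.71 ± 0.43 (edgeR adjusted p = 0.486) and a range of -1.23 to -0.50, the lower end of it without labelled knockout 4.

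Trim25, a ubiquitin ligase that activates the sensor encoded by Ddx58, differed in the other direction, at 80.7, 60.1, 83.8 and 96.8 CPM in wild type and 106, 89.8, 127 and 117 CPM in the labelled knockout libraries. Labelled knockout 2 lay below wild type 4 and the other labelled knockout libraries lay above all wild type libraries. The difference was 0.45 ± 0.16 with a 95% interval of 0.10 to 0.81 (range 0.37 to 0.58, edgeR adjusted p = 0.391). Usp18, which removes ISG15 from its targets and dampens receptor signalling, was looked at after its values had been seen. It had 12.7, 22, 18.8 and 23.7 CPM in wild type and 12.3, 13.4, 14.6 and 27.8 CPM in labelled knockout libraries, with labelled knockout 4 the highest of all 8, and a difference of -0.18 ± 0.29 (range -0.52 to -0.02).

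**Figure D2:**
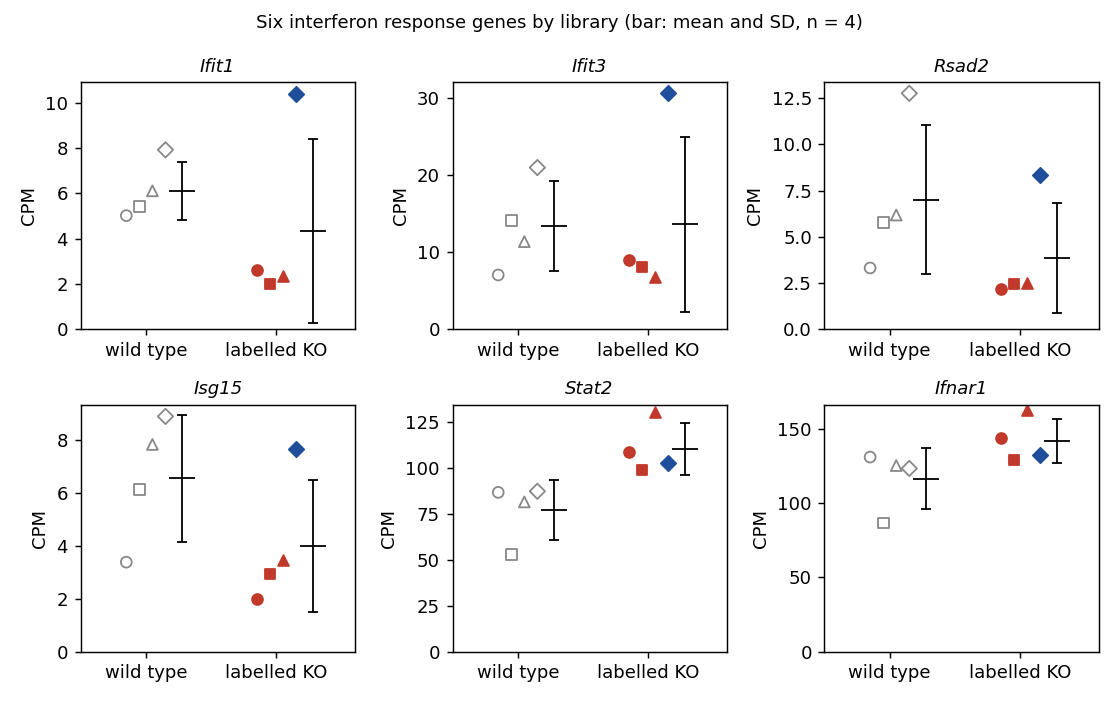
CPM of 6 genes (y axis, starting at 0) in wild type (open grey) and labelled knockout libraries (red, with labelled knockout 4 in blue), the symbols circle, square, triangle and diamond standing for libraries 1 to 4 and the bar for the mean and SD of 4 libraries. Labelled knockout 4 lies far above the other labelled knockout libraries in Ifit1, Ifit3, Rsad2 and Isg15 but not in Stat2 or Ifnar1.

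The sensors and RNA-acting enzymes had lower mean values in the labelled knockout group in 11 of 12 cases, with a median of -0.22. Eif2ak2 encodes PKR, a kinase that halts translation when it binds double-stranded RNA. It was at 27.4, 36.4, 31.6 and 34.2 CPM in wild type and 21.1, 25.8, 20.5 and 29.8 CPM in labelled knockout libraries, and only labelled knockout 4 lay above a wild type library, wild type 1. The difference was -0.42 ± 0.16 with a 95% interval of -0.76 to -0.07 (range -0.53 to -0.31, edgeR adjusted p = 0.391).

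Oas3, which makes the oligoadenylate that activates RNase L, had the lowest level per length of the list at 0.0898 CPM per kilobase. Its values were 1.05, 0.494, 1.12 and 0.502 CPM in wild type and 0.227, 0.367, 0.581 and 0.739 CPM in the labelled knockout libraries, where the groups overlapped widely, and the difference was -0.71 ± 0.46 (range -1.18 to -0.49, edgeR adjusted p = 0.511). Samhd1, a hydrolase of deoxynucleotide triphosphates, was the exception in sign and had the highest level per length of this group at 32.1 CPM per kilobase. It was at 281, 284, 286 and 260.0 CPM in wild type and at 339.8, 247, 360.1 and 295 CPM in the labelled knockout libraries, among which library 2 lay below all others, and it differed by 0.16 ± 0.12 (edgeR adjusted p = 0.569). Leaving out labelled knockout 2 gave 0.30, leaving out library 1 of that group gave 0.10 and leaving out library 3 gave 0.08.

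The 3 helicase sensors differed by -0.05 ± 0.10 for Ddx58 (RIG-I), -0.27 ± 0.39 for Ifih1 (MDA5) and -0.17 ± 0.19 for Dhx58 (LGP2). Ddx58 was the most precisely placed of the 3, with a 95% interval of -0.29 to 0.18 around a level of 146 to 193 CPM. Ifih1 was read at 0.825 to 3.80 CPM, and its highest and lowest values were both in labelled knockout libraries, 4 and 1. The other oligoadenylate synthetases differed by -0.27 ± 0.29 (Oas1a), -0.27 ± 0.29 (Oas2) and -0.09 ± 0.27 (Oasl2), the Z-nucleic acid sensor Zbp1 by -0.12 ± 0.26, the RNA-editing enzyme Adar by -0.03 ± 0.15 and the exonuclease Isg20 by -0.36 ± 0.24. The sign was not stable for 5 of these genes, with ranges of -0.51 to 0.05 for Oas1a, -0.39 to 0.09 for Oasl2, -0.43 to 0.07 for Zbp1, -0.16 to 0.13 for Adar and -0.15 to 0.05 for Ddx58. The ranges of Ifih1 (-0.77 to -0.01), Dhx58 (-0.36 to -0.02), Oas2 (-0.49 to -0.10) and Isg20 (-0.59 to -0.21) lay below 0. In 8 of these 12 genes labelled knockout 4 was the highest labelled knockout library, as it was in 19.8% of all genes tested.

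Of the 7 roles, the antiviral effectors had the widest spread among the labelled knockout libraries. Their mean values were lower in the labelled knockout group in 8 of 9 cases, with a median of -0.43 (the exception, Ifit3, turned under upper quartile scaling), and labelled knockout 4 was the highest labelled knockout library in all 9. In 6 of the 9 it was at least 1.5 times the next labelled knockout library. Over all genes tested it was highest in its group in 19.8%, and by at least 1.5 times in 2.92%. Within groups the highest library had a median of 3.10 times the lowest among labelled knockout libraries and 1.88 times among wild type libraries, while the corresponding medians over all genes were 1.6 and 1.63.

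Rsad2, which encodes viperin, an enzyme that makes a chain-terminating nucleotide (ENSMUSG00000020641.16, chromosome 12, 26442746 to 26456452, minus strand, mm10), was at 3.32, 5.77, 6.18 and 12.8 CPM in wild type libraries 1 to 4. The labelled knockout libraries had 2.19, 2.44, 2.50 and 8.35 CPM. Labelled knockout 1, 2 and 3 lay below all wild type libraries and labelled knockout 4 lay above all of them but wild type 4. The means were 7.01 ± 4.04 CPM for wild type and 3.87 ± 2.99 CPM for labelled knockout (SD, n = 4), and the difference of -0.86 ± 0.52 (edgeR adjusted p = 0.489) was -1.56 without labelled knockout 4 and -0.39 without wild type 4.

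Ifi44, a cytoplasmic interferon-induced protein (ENSMUSG00000028037.13, chromosome 3, 151730922 to 151749960, minus strand, mm10), was low throughout, at 0.278 CPM per kilobase. It had 2.78, 2.47, 1.07 and 2.92 CPM in wild type and 0.763, 1.36, 0.902 and 1.39 CPM in the labelled knockout libraries. All labelled knockout libraries lay below wild type 1, 2 and 4, while wild type 3 fell among them. The difference of -1.07 ± 0.35 was the largest of the 39 genes, with a 95% interval of -1.84 to -0.29 (range -1.30 to -0.60, edgeR adjusted p = 0.391).

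Bst2, also called tetherin, which holds budding virus at the cell surface, was the most abundant effector per length at 32.3 CPM per kilobase. Its values of 23.7, 31.7, 33.4 and 33.1 CPM in wild type and 28.8, 26.3, 24.4 and 32.0 CPM in the labelled knockout libraries overlapped, with wild type 1 the lowest of all 8, and the difference was -0.13 ± 0.15 (range -0.23 to -0.06, edgeR adjusted p = 0.709).

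Ifit1, which binds the ends of foreign RNA, and its relative Ifit3 were chosen after their values had been seen, and they set labelled knockout 4 apart most clearly. Ifit1 (ENSMUSG00000034459.8, chromosome 19, 34640871 to 34650009, plus strand, mm10) was at 5.02, 5.41, 6.11 and 7.92 CPM in wild type and 2.60, 2.0, 2.34 and 10.4 CPM in labelled knockout libraries 1 to 4. Labelled knockout 4 had 4.0 times the value of the next labelled knockout library and the highest of all 8, while the other labelled knockout libraries lay below every wild type library. The difference was -0.50 ± 0.50 with all libraries, -0.34 ± 0.53 without wild type 4 and -1.40 ± 0.23 without labelled knockout 4, where edgeR gave an adjusted p of 0.408. Its range over the alternatives was -1.40 to -0.21.

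Ifit3 was at 7.04, 14.1, 11.4 and 21 CPM in wild type and 8.97, 8.01, 6.75 and 30.6 CPM in the labelled knockout libraries. Labelled knockout 4 was 3.41 times the next labelled knockout library, and the difference was 0.02 ± 0.50. It was -0.76 without labelled knockout 4, 0.33 without wild type 4 and below 0 under upper quartile scaling. Ifit3b, a near-copy of Ifit3, had the same order of extremes, with 12.2 CPM in labelled knockout 4 and 2.40 to 3.21 CPM in the other labelled knockout libraries. Alignments to several places were all counted, so the split between the copies is uncertain, as it is for Oas1a, Gbp2, Gbp3 and Igtp with their relatives.

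Of the other effectors, Ifit2 differed by -0.43 ± 0.30, the dynamin-like GTPase Mx1 by -0.26 ± 0.33, the chaperone Rtp4 by -0.57 ± 0.40 and the apoptosis factor Xaf1 by -0.32 ± 0.22. In the same order, these differences were -0.79, -0.63, -1.02 and -0.49 without labelled knockout 4 and -0.33, -0.12, -0.26 and -0.18 without wild type 4. Mx1 was at 7.28, 9.93, 8.19 and 11.8 CPM in wild type and 4.1, 5.48, 8.48 and 13 CPM in the labelled knockout libraries, of which libraries 1 and 2 lay below the wild type range and library 4 above it. These values of Mx1 are shown after they had been seen.

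**Figure D3:**
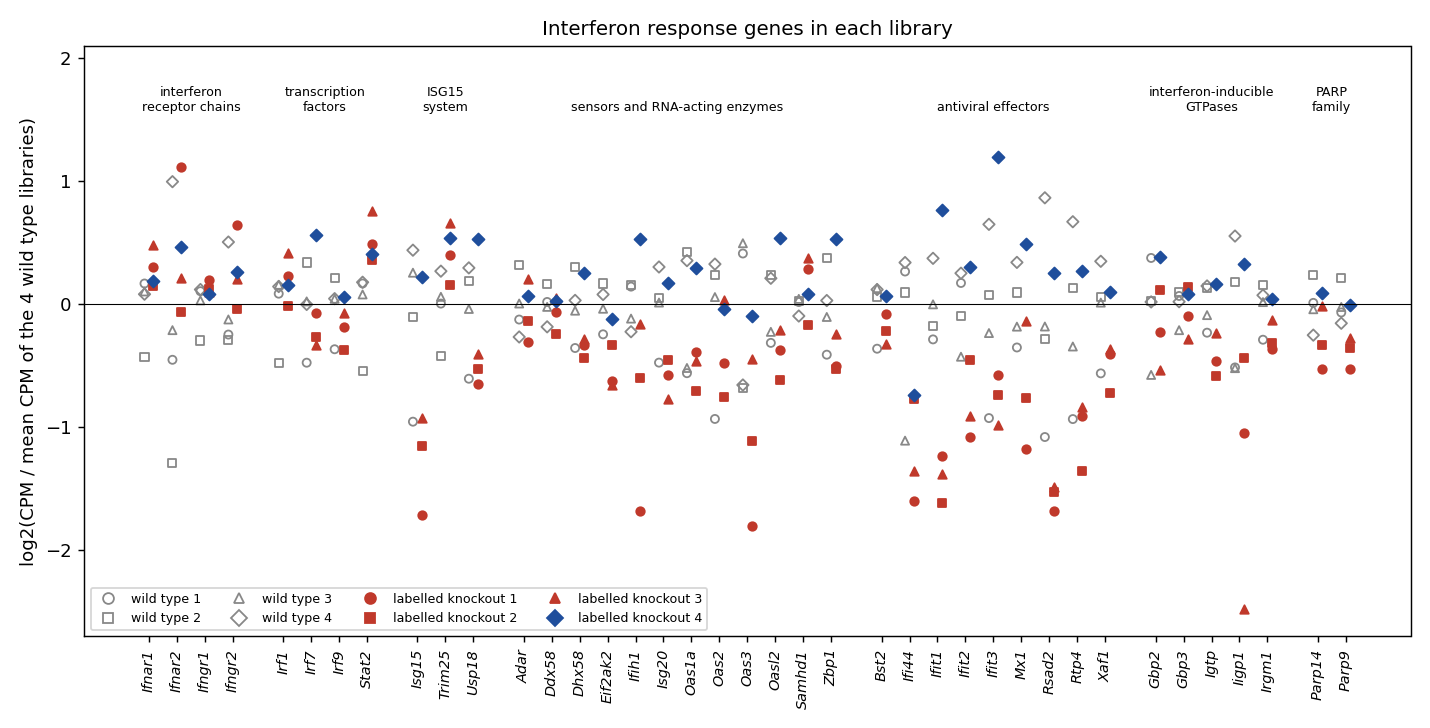
Each of the 39 genes in each library as log2 of its CPM over the mean CPM of the 4 wild type libraries (y axis), grouped by role, with wild type open grey, labelled knockout red and labelled knockout 4 blue. The blue diamonds lie at the top of the labelled knockout values in 27 of 39 genes, including all 9 antiviral effectors, and in none of the 4 receptor chains.

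The interferon-inducible GTPases act on membranes around intracellular pathogens. All 5 had lower mean values in the labelled knockout group, with a median of -0.18, although Gbp2 at -0.02 ± 0.25 and Gbp3 at -0.03 ± 0.13 were near 0 and had the opposite sign under limma-voom. Igtp was at 41.1, 53.0, 45.3 and 53.4 CPM in wild type and 35.1, 32.2, 40.9 and 54.1 CPM in the labelled knockout libraries, with labelled knockout 1, 2 and 3 below all wild type libraries and labelled knockout 4 above all of them. It differed by -0.25 ± 0.17 (edgeR adjusted p = 0.541), by -0.42 without labelled knockout 4 and by -0.11 without labelled knockout 2.

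Irgm1, a regulator of the other immunity-related GTPases and the most abundant of the group per length at 28.0 CPM per kilobase, was at 142, 193, 175 and 182 CPM in wild type. It had 134, 139, 158 and 178 CPM in the labelled knockout libraries, which overlapped with wild type, and differed by -0.18 ± 0.13 (range -0.28 to -0.09, edgeR adjusted p = 0.537). Iigp1 differed by -0.59 ± 0.50 (range -1.10 to -0.27), with its highest labelled knockout value in library 4.

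Parp9 and Parp14 encode ADP-ribosyltransferase family proteins of macrophage and lymphocyte interferon responses. Parp9 was at 116, 141, 119 and 109 CPM in wild type and 84.1, 94.5, 100.3 and 120.4 CPM in the labelled knockout libraries, and only labelled knockout 4 lay within the wild type range. The difference was -0.28 ± 0.13 with a 95% interval of -0.57 to 0.01 (edgeR adjusted p = 0.401), and it was -0.16 without wild type 2. Parp14 had 81.4, 95.3, 78.6 and 67.9 CPM in wild type and 56.0, 64.4, 80.1 and 85.9 CPM in labelled knockout libraries, where libraries 3 and 4 lay within the wild type range, and differed by -0.18 ± 0.16 (edgeR adjusted p = 0.633). The Parp14 difference was -0.05 without wild type 2, -0.08 without labelled knockout 2, -0.09 without labelled knockout 1 and -0.27 without labelled knockout 4.

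Seen by library, labelled knockout 4 was the highest of the labelled knockout libraries in 27 of the 39 genes, where it held that place in 19.8% of all genes tested. It was the highest of all 8 libraries in 11 (5.71% of all genes) and was highest in its group by at least 1.5 times in 15 (2.92%). It was the lowest of all 8 in 0 of the 39 (7.52% of all genes). The lowest value of all 8 was in labelled knockout 1 for 12 genes (14.2% of all genes), in labelled knockout 2 for 11 (6.06%) and in wild type 2 for 7 (25.3%).

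A score per library was taken as the mean deviation of log2 CPM from the mean over the 8 libraries. Over all 39 genes it was -0.11, 0.14, 0.05 and 0.34 in wild type libraries 1 to 4 and -0.31, -0.30, -0.19 and 0.39 in labelled knockout libraries 1 to 4. Labelled knockout 4 thus had the highest score and the other labelled knockout libraries the 3 lowest. The score of the 9 antiviral effectors was -0.11, 0.33, 0.08 and 0.77 in wild type and -0.63, -0.56, -0.52 and 0.64 in labelled knockout libraries. That of the 4 receptor chains had another order, with -0.21, -0.67, -0.15 and 0.33 in wild type and 0.46, -0.06, 0.15 and 0.15 in labelled knockout libraries. Wild type 4 was the highest wild type library in both, and its score for the antiviral effectors was above that of labelled knockout 4.

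**Figure D4:**
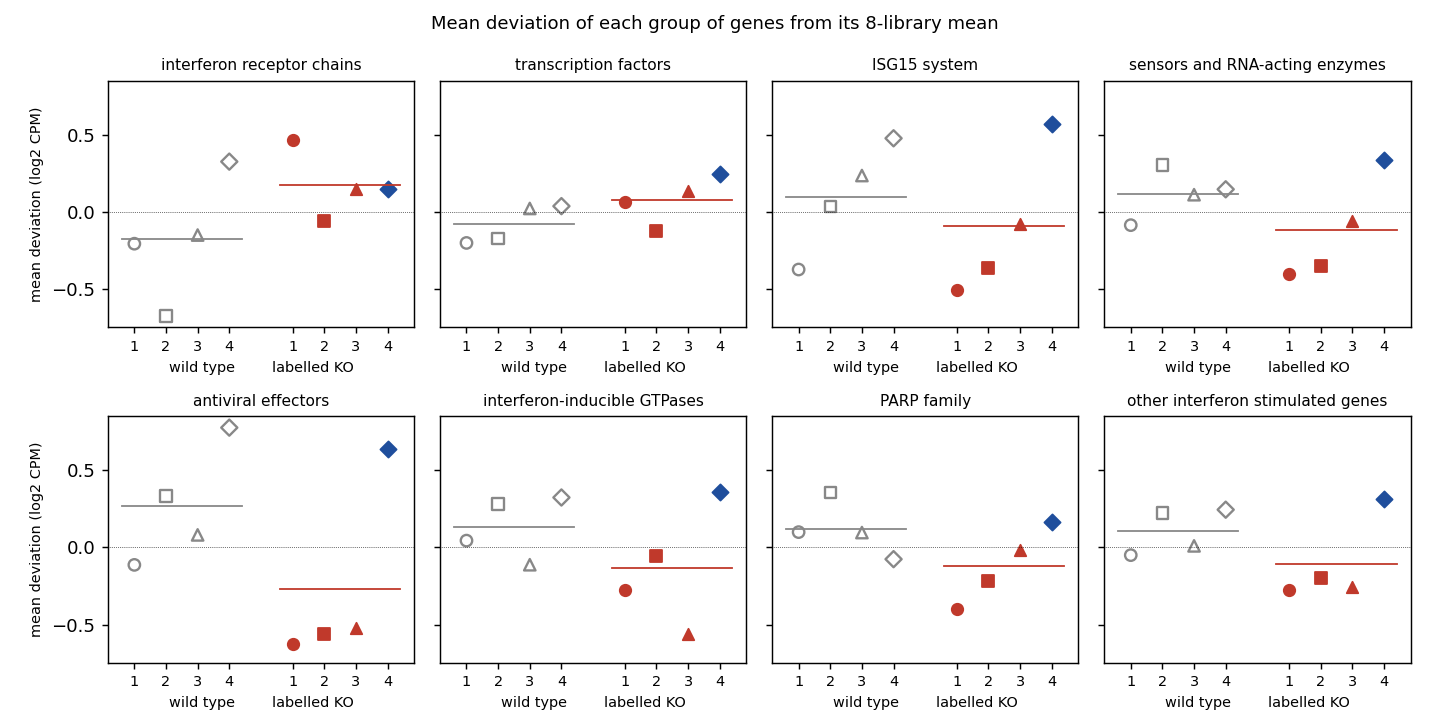
Mean deviation of log2 CPM from the 8-library mean (y axis) for each role and for a further list of interferon-stimulated genes, by library 1 to 4 of each group (x axis), with a line at each group's mean. Labelled knockout 4 (blue diamond) lies above the other labelled knockout libraries in every panel but the receptor chains.

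Divided by the promoter letters, labelled knockout 4 was the highest labelled knockout library in 12 of the 15 genes with an ISRE match and in 7 of the 15 without one. It held that place in 19.8% of all genes tested. The log2 fold change was below 0 in 13 of the 15 with a match (median -0.25) and in 7 of the 15 without (median 0.02). Stat2 and Ifit3, both shown above with a match, were the 2 genes with a match and a value above 0, that of Ifit3 falling below 0 under upper quartile scaling. All 4 receptor chains had a sequence and no match. The 9 genes without a promoter entry had values below 0 in 9 of 9 cases.

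The other genes of the pathway were read from lists. Of 21 interferon ligand genes, 21 were under 1 CPM in every library and 8 had no count in any library. Only the type II ligand Ifng passed the filter, at 0.441 to 0.762 CPM in wild type and 0.0412 to 0.521 CPM in labelled knockout libraries, a difference of -0.91 ± 0.59 (edgeR adjusted p = 0.513). Of 11 genes for kinases, STAT factors and inhibitors of the pathway, 0 passed the test, and 6 had higher and 5 lower mean values, with a median of 0.07.

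Within that list Tyk2, the kinase bound to Ifnar1, had 57.1, 38.6, 57.0 and 51.7 CPM in wild type and 59.7, 63.9, 80.6 and 71.1 CPM in labelled knockout libraries. The groups did not overlap, as in Stat2 and in 2.62% of all genes tested with the labelled knockout libraries higher. The difference was 0.43 ± 0.15 (edgeR adjusted p = 0.391). Stat3 averaged 165 ± 31.7 CPM in labelled knockout and 95.5 ± 37.5 CPM in wild type libraries (SD, n = 4), a difference of 0.79 ± 0.26 (edgeR adjusted p = 0.391).

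A further list of 62 interferon-stimulated genes, none of them among the 39, had 61 that were tested, of which 0 passed the test. Of these, 11 had higher and 50 lower mean values, with a median of -0.18 that became -0.30 when labelled knockout 4 was left out, -0.08 for wild type 2 and -0.06 for labelled knockout 2. Labelled knockout 4 was the highest labelled knockout library in 41 of the 61, against 19.8% of all genes tested. It was the highest of all 8 in 16, against 5.71% of all genes. Their score was -0.05, 0.22, 0.01 and 0.24 in wild type and -0.28, -0.20, -0.26 and 0.32 in labelled knockout libraries 1 to 4. Slfn5, a Schlafen family gene, had the smallest p of the list at 8.73 ± 1.68 CPM in wild type and 4.72 ± 1.76 CPM in labelled knockout libraries (SD, n = 4), a difference of -0.89 ± 0.27 (edgeR adjusted p = 0.391). Pml, the organiser of nuclear bodies, had 159 ± 29.4 CPM and 212 ± 22.4 CPM, a difference of 0.42 ± 0.14 (edgeR adjusted p = 0.391).

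Transcripts of other cell types also differed between libraries. In bulk samples, fewer cells of a type and less RNA per cell cannot be told apart. The 10 neutrophil markers, all with lower mean values in the labelled knockout group, summed to 263, 572, 290.1 and 336 CPM in wild type libraries 1 to 4 and to 180, 498, 122 and 304 CPM in labelled knockout libraries 1 to 4. The 10 monocyte and macrophage markers (8 of 9 tested lower) summed to 56.7, 93.0, 58.5 and 60.8 CPM and to 31.6, 59.3, 22.4 and 67.5 CPM. Labelled knockout 1 and 3 were the lowest of all 8 libraries in both lists, while labelled knockout 2 and 4 lay within the wild type range in both.

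The 11 natural killer and T cell markers (7 of 9 tested lower) summed to 35.5 to 49.9 CPM in wild type and to 14.6, 31.9, 9.20 and 32.8 CPM in labelled knockout libraries, with Cd3e and Cd8a under 1 CPM in every library. The 9 markers of plasmacytoid dendritic cells, a main source of type I interferon, summed to 22.9 to 42.2 CPM in wild type and to 25.2, 50.1, 17.6 and 25.8 CPM in labelled knockout libraries (6 of 8 tested lower). The erythroid markers summed to 1925 to 4724 CPM in wild type, highest in wild type 4, and to 385 to 1481 CPM in labelled knockout libraries (7 of 8 tested lower). Among the labelled knockout libraries, library 4 had the highest monocyte, natural killer and T cell, and erythroid sums, and library 2 the highest neutrophil and plasmacytoid dendritic cell sums. The 6 plasma cell markers summed to 66.8 to 200.4 CPM in wild type and to 107.6 to 237.6 CPM in labelled knockout libraries (2 of 5 tested lower). The part of these transcripts in the interferon gene values was not tested.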

How the data were processed

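RNA-seq read counts were compared between 4 libraries labelled CD25_KO and 4 labelled WT, grouped by the genotype label. The authors deposited a table of unnormalised fragment counts per gene. Per the file headers, featureCounts 2.0.1 summed fragments over GENCODE vM25 exons. Fragments that align to several places were counted at each place and no strand option was set, so near-copies and overlapping genes are uncertain. Per the file headers the table also gives each gene's exon length (an annotation, unit other). Per the submitters' processing notes, STAR 2.7.7a, GATK 4.1.9.0 and the mm10 build were used, with no role stated for GATK. The labels' protocols name Trizol for RNA extraction and the SMARTER mRNA-Seq kit for the libraries.

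From these counts, genes were filtered with filterByExpr (18884 left), scaled with TMM factors and tested with edgeR 4.0.16 in R 4.3.3 (glmQLFit robust, glmQLFTest, two-sided, genotype only). P-values were Benjamini-Hochberg adjusted over all genes tested, with a threshold of 0.05. The SE was derived from the F value, and 95% intervals use the fit's degrees of freedom. Scores use log2 CPM with a prior count of 2. The method was tested on simulated data. Symbols came from GENCODE M21 on the same build, for 55141 of 55487 identifiers, and positions came from the deposited table. Promoters came from RefSeq and were searched on both strands. The lowest chi-square per degree of freedom between libraries of a group was 25.2 over 12 pairs, so none was counted as a copy.

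The genes and lists were chosen with earlier results of these data known. In each role the 2 genes with the smallest unadjusted p and the most abundant per length were named with full values, and in each further list the 2 with the smallest p. Genes outside this rule are marked in the text or given without the full set of library values. The alternatives were size factors of DESeq2, upper quartile scaling, no count filter and a filter of 1 CPM in 4 libraries. DESeq2 1.42.0, limma-voom (limma 3.58.1) with quality weights and a replicate block were also used. Further fits left out haemoglobin, mitochondrial, receptor segment, Xist and Y chromosome genes, or each library in turn. Leaving out both libraries numbered 4 was added after seeing the data.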

Additional observations from a re-analysis of the deposited data

Results flagged for a closer look

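Values of 4 libraries were looked at for a library far from the other 3 of its group, by the gap to its neighbour as a share of the whole range, in 94 sets of 4 values. Chance marks about 1 set in 20, and 8 sets were past the 95% critical value of Dixon's test.

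In the labelled knockout group every marked library was library 4. Its share was 0.948 for Rsad2 (8.35 CPM against 2.19 to 2.50 CPM), 0.929 for Ifit1 (10.4 against 2.0 to 2.60 CPM) and 0.907 for Ifit3 (30.6 against 6.75 to 8.97 CPM). For Usp18 it was 0.854 (27.8 against 12.3 to 14.6 CPM). The score of the 9 antiviral effectors, which holds 3 of these genes, had a share of 0.917 (0.64 against -0.63 to -0.52).

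In the wild type group the marks fell on receptors and transcription factors. Wild type 2 was low in Irf1, with a share of 0.863 (112.9 CPM against 167 to 176 CPM), and in Stat2, with a share of 0.831 (53.1 against 81.7 to 87.5 CPM). Wild type 4 was high in Ifngr2, with a share of 0.836 (48.2 against 27.8 to 31.2 CPM).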

How the results depend on the processing

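None of the 39 genes passed an adjusted p of 0.05 under any of the 17 alternatives, and the smallest adjusted p was 0.0740, for Ifit1 without both libraries numbered 4 (edgeR quasi-likelihood), a fit chosen after seeing the data. Over all genes, leaving out 1 library gave 0 to 363 calls, and the 363 were found without wild type 4, none of them among the 39. The median of the 39 was below 0 in all 17, from -0.38 without labelled knockout 4 to -0.06 without wild type 2. Without both libraries numbered 4 it was -0.37. In that fit 14 of the 39 had an unadjusted p under 0.05 (edgeR quasi-likelihood), against 4266 of all 18883 genes. The 17 genes named by the rule on p and level per length kept their sign in every fit. Ifit3, Irf7, Oas1a, Oasl2, Zbp1, Adar, Ddx58, Gbp2 and Gbp3 did not. Il2ra was 0.007 without wild type 2 and ranged from -0.27 to 0.007 when 1 library was left out. Same-numbered libraries had correlations of their deviations of 0.098, 0.321, 0.196 and -0.107. The best-correlated labelled knockout library had the same number for wild type 2 and 3. It was library 4 for wild type 1 and library 1 for wild type 4. The labels state no pairing, and these correlations do not settle whether there was one. With the replicate block no gene was called, 10 of the 39 had an unadjusted p under 0.05 (background 16.2%), and the median was -0.18. Ifi44, Oas3 and Ifih1 were read at low counts, and 12 of the 39 had a 95% interval reaching beyond a 2-fold change.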

Other observations

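Class I antigen processing, which type II interferon is known to raise, was read from a list of 11 genes, of which 0 passed the test. The mean values were higher in the labelled knockout group in 5 and lower in 6, with a median log2 fold change of -0.01. Tapbp, the tapasin bridge between the peptide transporter and class I molecules, averaged 436 ± 56.8 CPM in labelled knockout and 294 ± 74.8 CPM in wild type libraries (SD, n = 4). The groups did not overlap, where 2.62% of all genes tested separated with the labelled knockout libraries higher. The difference was 0.57 ± 0.19 (edgeR quasi-likelihood, adjusted p = 0.391). Tap2, a chain of the peptide transporter, averaged 111 ± 10.1 CPM and 92.5 ± 3.05 CPM, again without overlap, and a difference of 0.26 ± 0.09 (edgeR quasi-likelihood, adjusted p = 0.391).

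The pathway that induces interferon was read from 18 genes, of which 16 were tested and 0 passed. The mean values were higher in the labelled knockout group in 12 and lower in 4, with a median of 0.17. Irf5, a transcription factor downstream of Toll-like receptors, averaged 195 ± 29.2 CPM in labelled knockout and 139.8 ± 18.6 CPM in wild type libraries (SD, n = 4), a difference of 0.48 ± 0.14 (edgeR quasi-likelihood, adjusted p = 0.391). Rnaseh2b, a subunit of the nuclease that removes RNA from DNA, averaged 70.5 ± 9.90 CPM and 87.7 ± 3.94 CPM, a difference of -0.32 ± 0.12 (edgeR quasi-likelihood, adjusted p = 0.391). In both genes the groups did not overlap, and Irf3 of this list also separated, with higher values. Of all genes tested, 2.62% separated with the labelled knockout libraries higher and 4.17% with them lower.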
